A study of Homo sapiens with 8 samples.

Results

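The contigs described here are the pieces of the human genome assembly GRCh38 that have sequence but no place on a finished chromosome, which the fragment tables name with a GL or KI accession prefix. A fragment was counted as a contig fragment when its sequence name was not an autosome, X, Y or the mitochondrial genome and began with GL or KI. This rule found 161 contigs, 16 beginning with GL and 145 with KI, among 647 sequence names. They held 304302 of 26148975 fragments, or 1.16%, in 7382 windows of 1 kb. The set includes unlocalised pieces, whose chromosome is known but not their place on it, as well as unplaced ones. The working label for the set was contigs with satellites and ribosomal DNA. The satellite content could not be checked, since contig sequence was not used here, and the ribosomal RNA genes were checked by position, with the result given below.

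Contigs of this kind are what remains when an assembly meets long repeats: much of what they carry is tandem satellite DNA of centromeres and pericentromeres, or segmental duplication. Satellite-rich heterochromatin is known to replicate late in S phase. The ribosomal DNA is a tandem array on the short arms of the acrocentric chromosomes; each unit holds the 45S pre-rRNA gene, which gives the 18S, 5.8S and 28S RNAs, and a long intergenic spacer, and transcribed units are known to replicate early. A read from one copy of a repeat can be placed on any near-identical copy that the assembly holds, so a contig's count stands for a repeat family and not for 1 place in the genome.

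The cells were RPE-1 hTERT, a telomerase-immortalised line of retinal pigment epithelium, either CFAP20 knockout (CFAP20-KO, here KO) or wild type (WT). CFAP20 encodes a protein known from cilia and flagella. For both genotypes the thymidine analogue EdU, which cells build into DNA as they copy it, was given at 10 µM over 15 min, and the cells were fixed in 70% ethanol and sorted into 384-well plates for scEdU-seq, which recovers the EdU-labelled DNA fragments of single cells. Every group shares the line, the pulse and the fixation, and the sources used here do not say whether the KO is 1 clone. Each of the 8 plates held both genotypes, in 1429 KO and 1594 WT wells, as a column of the tables gives them, while the genotype label of every plate reads CFAP20-KO. The KO itself could not be checked, as CFAP20 held 105 fragments in all, 42 from KO and 63 from WT wells. No well name occurred on more than 1 plate; every well barcode recurred across plates, and 371 of them carried KO cells on some plates and WT cells on others.

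Plates held 1746074 to 4181841 fragments. Wells were classed by their autosomal fragments, as under 1000 (593 wells), 1000 to 5000 (1516 wells) or 5000 and more (914 wells, 431 KO and 483 WT). The wells of 5000 or more, called strongly labelled here, gave 88.4% of the contig fragments. The 2430 wells with at least 1000 autosomal fragments were placed in an S-phase order by correspondence analysis of their autosomal counts (first axis), running from wells rich in gene-dense bins (position 0) to wells rich in gene-poor bins (position 1). Contig fragments played no part in that order. The strongly labelled wells were cut along it into 4 equal parts, Q1 (earliest) to Q4 (latest), of 228 or 229 wells each. Levels are given as fragments per 1000000 fragments of the same wells (FPM). The plate was the replicate throughout. The p-values are from exact two-sided sign-flip tests over 8 plates, for which the smallest possible value is 0.00781, or from limma fits across all features; nothing in the sources used here says that plates came from separate cultures.

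A few contigs held most of the fragments. The first 5 contigs held 59.3% and the first 10 held 70.4%, 40 contigs held 1000 fragments or more, 94 held at least 10 but under 1000, and 27 held fewer than 10, with a median of 114. Of the 161 contigs, 115 were found on every plate. KI270438.1 led with 3289 ± 605 FPM in strongly labelled wells (mean ± SD over 8 plates, from 85267 fragments in all wells) and was found in 98.7% of those wells. KI270729.1 followed with 1236 ± 215, GL000225.1 with 1224 ± 200 and GL000216.2 with 826 ± 118 FPM. KI270729.1 and GL000225.1 did not differ beyond the spread between plates. KI270442.1 (566 ± 75.1), KI270744.1 (362 ± 37.4), KI270736.1 (342 ± 63.8), GL000224.1 (219 ± 10.6), KI270733.1 (206 ± 48.6) and KI270709.1 (185 ± 28.2) completed the first 10. These are levels per contig, not per length.

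Within a contig the fragments were concentrated further. The 10 fullest windows held 26.7% of all contig fragments, and 8 of them lay on KI270438.1. On that contig, bases 110001 to 111000 held 18839 fragments and bases 109001 to 110000 held 18790, each about 22% of the contig. A single start, base 110134 on the forward strand, held 10334 fragments from 1509 wells, and base 109984 on the reverse strand held 7998 fragments from 1086 wells. Other contigs were filled more evenly. In strongly labelled wells KI270442.1 spread 12527 fragments over 371 windows, the fullest with 8.27% of them, and KI270728.1 spread 2759 over 645 windows, the fullest with 1.99%.

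Contig fragments also differed in kind from autosomal fragments of the same wells. Repeats of an earlier fragment with the same well, start and direction made up 17.6% ± 1.05 on contigs and 4.43% ± 0.739 on autosomes (SD, n = 8 plates). The share of reverse fragments was 43.4% ± 0.663 on contigs and 49.6% ± 0.0654 on autosomes. The median length was 307 ± 17.6 bp on contigs and 257 ± 8.38 bp on autosomes, and 24.8% ± 1.90 against 0.968% ± 0.179 were longer than 1000 bp. All 4 differences had the same sign on 8 of 8 plates (exact p = 0.00781 each, and the same after adjustment over the 4). Single contigs were more extreme: KI270438.1 had 37.0% duplicates and 21.8% reverse fragments, and GL000225.1 had a median length of 6918 bp, with 57.5% of fragments over 1000 bp. For comparison, 89.6% of 48001 fragment starts inside RefSeq promoter windows (GRCh38.p14) lay directly beside the letters CATG, read on both strands, and 54.8% of the 33725 windows held CATG.

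Nearly all contigs with enough fragments were late. The mean S-phase position of contig fragments in strongly labelled wells was 0.801 ± 0.0163, against 0.532 ± 0.0386 for autosomal fragments (SD, n = 8 plates), higher on 8 of 8 plates (exact p = 0.00781). Of 69 contigs with at least 10 fragments on every plate, 57 had a mean position above 0.7, 8 lay between 0.4 and 0.7, and 4 lay below 0.4, with a median of 0.807. The latest was KI270709.1, at 0.900, followed by KI270728.1 (0.886), KI270707.1 (0.881), KI270738.1 (0.876) and KI270729.1 (0.874), whose spreads over plates overlap. The earliest were GL000220.1 (0.273 ± 0.0497), KI270733.1 (0.342 ± 0.0646), KI270734.1 (0.355 ± 0.0400) and KI270731.1 (0.365 ± 0.0480), whose spreads overlap. GL000220.1 and KI270733.1 are the contigs that carry ribosomal RNA genes in this assembly. GL000219.1 (0.568 ± 0.0308), GL000194.1 (0.585 ± 0.0243) and GL000218.1 (0.619 ± 0.0456) were the better-filled contigs between these extremes.

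**Figure D1:**
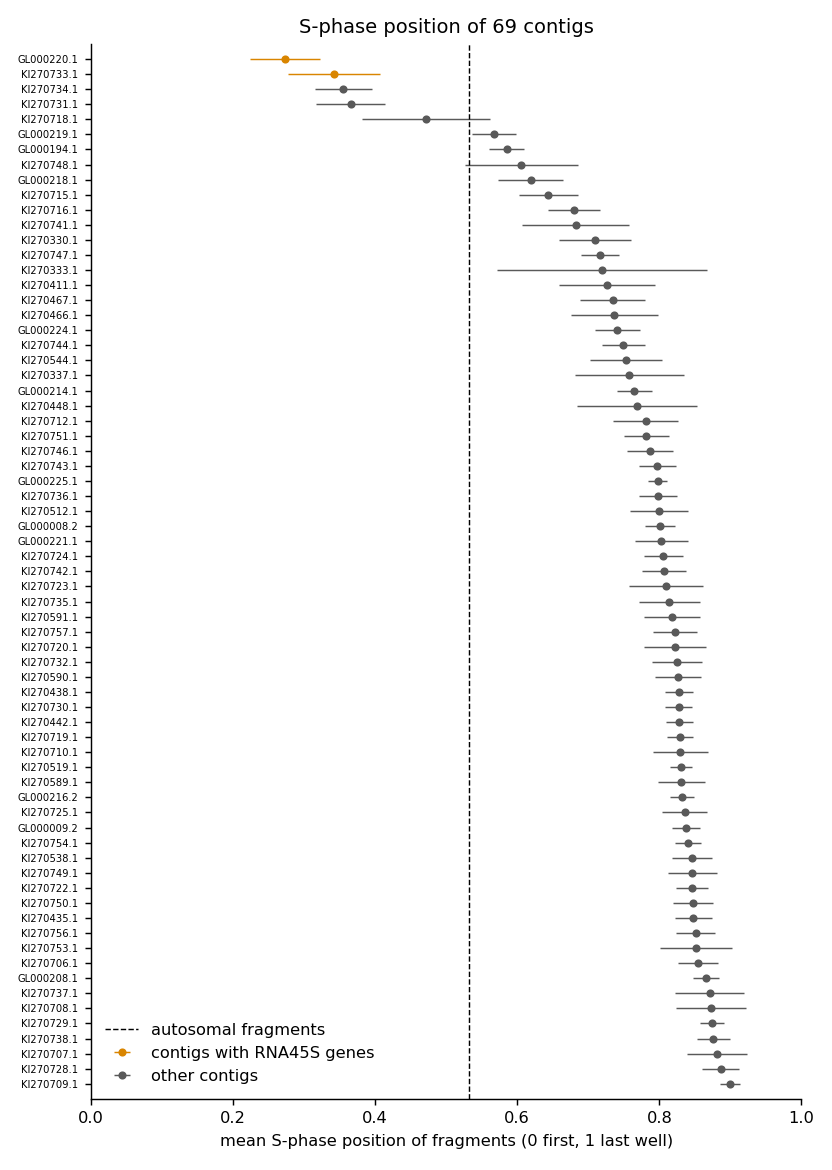
Mean S-phase position of the fragments of each of 69 contigs in strongly labelled wells; points are means and bars SD over 8 plates, contigs run from the earliest at the top to the latest at the bottom, and the dashed line is the mean of autosomal fragments (0.532). GL000220.1 and KI270733.1, in orange, are the first 2 of the 4 contigs below 0.4, while 57 contigs lie above 0.7.

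Read as shares, contig fragments made up 0.242% ± 0.0518 of all fragments in Q1, 0.534% ± 0.129 in Q2, 1.39% ± 0.202 in Q3 and 2.48% ± 0.322 in Q4 (SD, n = 8 plates). The lowest, median and highest plates were 2.07%, 2.41% and 3.15% in Q4 and 0.177%, 0.231% and 0.342% in Q1, so the 2 did not overlap. Q4 stood above Q1 by 3.37 ± 0.25 on the log2 scale, or 10.4-fold, on 8 of 8 plates (exact p = 0.00781, adjusted p = 0.0141 over 9 comparisons). The share is relative: it falls when other parts of the genome gain.

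Most single contigs rose with the total. Of 56 contigs tested in limma's voom fit with all contigs and 500 kb bins (5763 features), 53 were higher in Q4 than in Q1, 2 were lower and GL000194.1 was called in neither direction. In the same fit 39.4% of all features were called higher and 55.3% lower. The minimum of 10 fragments applied to the mean over both groups, and 39 of the 56 contigs, all called higher, reached it in Q4 but not in Q1, 5 of them with under 1 fragment per plate in Q1. Such contigs had to be higher in Q4 to be tested, so the tally describes the tested contigs and is no support for a shift of all 161. Of the 16 contigs that reached the minimum in both, 14 were higher, KI270733.1 was lower and GL000194.1 was the one not called, while GL000220.1 reached it in Q1 alone; the other 105 contigs were not tested. The median log2 change was 3.45 over those 16 and 4.25 over the 56, beside -1.47 over all features. Scaling on the median bin moved the values of all features by a median of 2.00. KI270728.1, one of the 39, had the greatest change, with 365 ± 102 FPM in Q4 and 8.80 ± 5.67 in Q1 (log2 change 5.44, SE 0.34). It held 2060 fragments in Q4 and 35 in Q1, so its value describes a contig that had to be higher in Q4 to be tested. KI270438.1 had 7342 ± 1293 in Q4 and 543 ± 189 in Q1 (log2 change 3.82, SE 0.17, limma adjusted p = 6.0e-17). GL000194.1 had 82.3 ± 10.2 in Q4 and 75.6 ± 23.9 in Q1 (log2 change 0.23, SE 0.19, limma adjusted p = 0.253).

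GL000220.1 and KI270733.1 ran the other way, and were the only 2 of the 56 to do so past the test. KI270734.1 and KI270731.1, with early mean positions of 0.355 and 0.365, were not among the 56. GL000220.1 met the minimum count through Q1 alone, so it had to be lower in Q4 to be tested. GL000220.1 had 9.58 ± 4.76 FPM in Q4 and 139 ± 27.2 in Q1 (log2 change -3.90, SE 0.27, limma adjusted p = 5.2e-13). KI270733.1, an unlocalised piece of chromosome 22, had 70.2 ± 29.5 in Q4 and 468 ± 112 in Q1 (log2 change -2.74, SE 0.20, limma adjusted p = 1.7e-12). Every plate was lower in Q4 for both contigs, and Q4 and Q1 did not overlap. As a share of all fragments, GL000220.1 fell by 3.89 ± 0.68 on the log2 scale, on 8 of 8 plates (exact p = 0.00781, adjusted p = 0.0141). KO over WT was 0.15 ± 0.24 for GL000220.1 over all strongly labelled wells, above 0 on 7 of 8 plates (exact p = 0.0938, adjusted p = 0.105), and -0.29 (adjusted p = 0.0469) where each well had equal weight. These contigs are thin: GL000220.1 held 1240 fragments in all wells, and 54 in Q4.

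**Figure D2:**
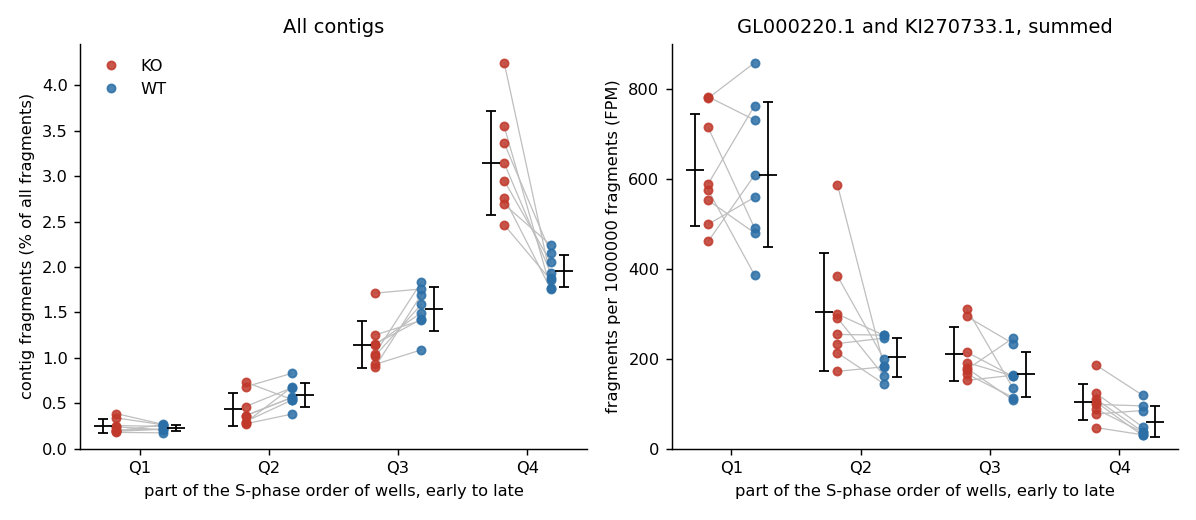
Left, contig fragments as a percent of all fragments, and right, GL000220.1 and KI270733.1 summed as FPM, by S-phase part Q1 to Q4 of the strongly labelled wells; each point is a plate, grey lines join KO and WT of a plate, and black bars show mean ± SD. The contig share climbs to 3.15% in KO and 1.96% in WT wells in Q4, while the contigs with ribosomal RNA genes are highest in Q1.

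The transcribed ribosomal DNA itself was almost without fragments. The sources used here do not say how reads with several equal placements were handled, so a lack of fragments is not a lack of labelling. The RefSeq table gives RNA45SN5, with RNA18SN5, RNA5-8SN5 and RNA28SN5 inside it, at bases 105424 to 118780, and RNA45SN4 with its 18S, 5.8S and 28S genes at bases 122273 to 135645; it names no contig for them, and their placement on GL000220.1 and KI270733.1 is general knowledge of the assembly. Of 1240 fragments on GL000220.1, 0 started within RNA45SN5, which allows up to 3, 98 lay before it and 1142 (92.1%) after it. Of 5157 fragments on KI270733.1, 1 started within RNA45SN4, in RNA28SN4, 260 lay before it and 4896 (94.9%) after it. The 45S genes that RefSeq places on chromosome 21, RNA45SN1, RNA45SN2 and RNA45SN3, held 0 fragments each. Past RNA45SN5, 16 of 28 kb held a fragment, and the fullest lay at both ends of the stretch: 300 fragments in the kb at 14 kb from the gene's start, against 279 at 40 kb and 182 at 39 kb. Past RNA45SN4 all 30 kb held fragments, and the fullest, at 42 kb from the gene's start, held 866. Much of that came from 1 start, base 164454 on the forward strand, with 649 fragments from 439 wells. The label ribosomal DNA therefore fits the sequence beside the rRNA genes and not the genes, and the early values above are those of the flanks.

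**Figure D3:**
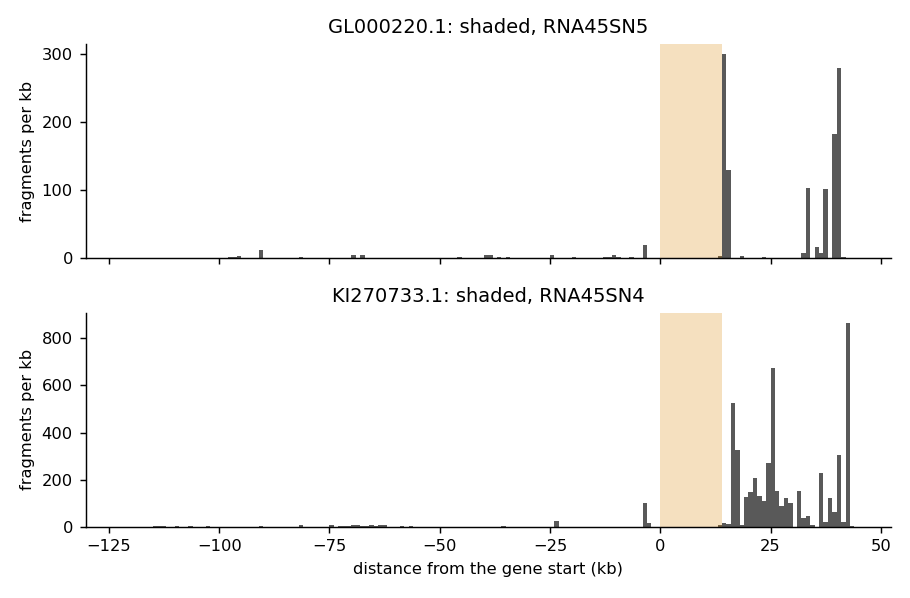
Fragment starts per kb (vertical axis) by distance in kb from the start of RNA45SN5 on GL000220.1 (top) and of RNA45SN4 on KI270733.1 (bottom), over all wells and plates; shading marks the gene. Each contig is drawn from its first to its last fragment; bars are at or near 0 across both genes, with up to 300 fragments per kb past RNA45SN5 and up to 866 past RNA45SN4.

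The contig share was highest in strongly labelled wells. It was 0.880% ± 0.0879 in wells under 1000 fragments, 1.02% ± 0.111 in wells of 1000 to 5000 and 1.21% ± 0.157 in strongly labelled wells (SD, n = 8 plates). The lowest, median and highest plates were 1.01%, 1.21% and 1.49% in strongly labelled wells, against 0.815%, 0.859% and 1.09% in wells under 1000, so the classes overlap across plates while differing within each. Strongly labelled wells stood above wells under 1000 by 0.45 ± 0.16 on the log2 scale and above wells of 1000 to 5000 by 0.24 ± 0.12, each on 8 of 8 plates (exact p = 0.00781, adjusted p = 0.0141). The second difference was 0.05 on the log2 scale (exact test, adjusted p = 0.305) once the 3 strongly labelled wells with the highest contig share were left out of each plate and genotype. No wells of 1000 to 5000 were left out, so this step could only lower the difference. Wells under 1000 were not placed in the S-phase order, and the part of S-phase mix in the differences between classes was not tested. No wells without EdU were analysed here, so wells under 1000, with 403027 fragments in all and 3552 on contigs, are the nearest to a background measure.

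**Figure D4:**
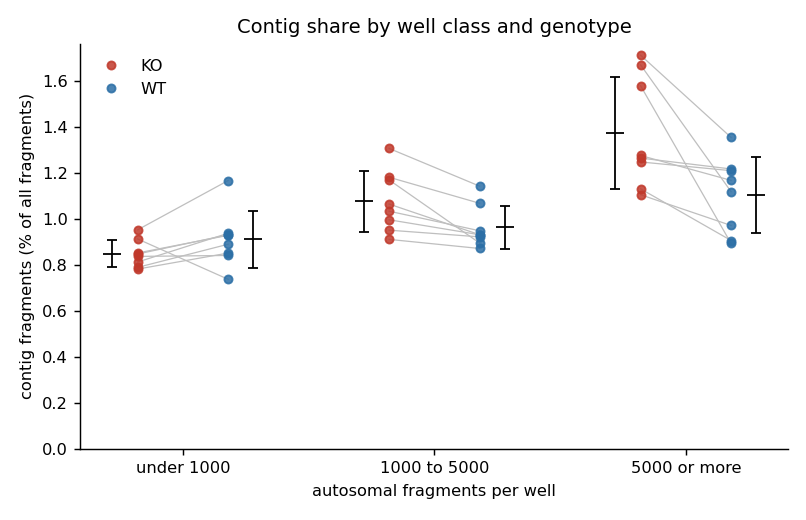
Contig fragments as a percent of all fragments by autosomal fragments per well, for KO (left) and WT (right) of each class; each point is a plate, grey lines join a plate's 2 genotypes, and black bars show mean ± SD. In strongly labelled wells KO lies above WT on 8 of 8 plates, at 1.37% against 1.10%, and in wells under 1000 the means are 0.848% in KO and 0.910% in WT.

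Single contigs mostly leaned the same way between the classes, with 35 of 37 tested contigs above 0 and a median log2 change of 0.45, beside 0.02 over all features. Of the 37, 10 were higher in strongly labelled wells than in wells under 1000 past the test and 0 were lower, while 1.95% of all 5653 features were called higher and 8.65% lower. In the unadjusted limma test 17 of the 37 contigs had p under 0.05. Wells under 1000 gave few fragments, and 30 of the 37 contigs, 8 of the 10 called among them, had a mean under 10 per plate there, so these counts too describe contigs that were tested for being well filled in strongly labelled wells. GL000225.1 had 1224 ± 200 FPM in strongly labelled wells, against 335 ± 101 in wells under 1000 (log2 change 1.90, SE 0.21, limma adjusted p = 8.1e-07), with no overlap between plates. GL000208.1 (log2 change 1.32, limma adjusted p = 0.00560) and GL000221.1 (1.12, limma adjusted p = 0.0212) followed it, each with 11 fragments in wells under 1000. KI270438.1 had 3289 ± 605 FPM in strongly labelled wells and 3093 ± 543 in wells under 1000 (log2 change 0.08, SE 0.12, limma adjusted p = 0.747), and with duplicates counted once its sign turned, to -0.37 (limma adjusted p = 0.0417).

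Windows showed both directions. Of 22 contig windows tested, 7 were higher in strongly labelled wells (31.8%) and 2 were lower (9.09%). The 7 higher windows held 5 to 61 fragments each in wells under 1000 over all 8 plates, so all 7 met the minimum count through the strongly labelled wells. Their number describes windows that were well filled there and is no support for a shift of contig windows in general. The clearest of the lower ones was bases 101001 to 102000 of KI270438.1, with 266 FPM in strongly labelled wells against 518 in wells under 1000 (log2 change -0.97, SE 0.23, limma adjusted p = 0.000154), lower on 8 of 8 plates; the other was bases 1 to 1000 of GL000216.2 (log2 change -0.87, limma adjusted p = 0.0104). Within the KI270438.1 window, base 101648 alone gave 4883 fragments from 1609 wells. Among the higher windows, bases 67001 to 68000 of GL000225.1 had 81.8 FPM in strongly labelled wells against 13.4 in wells under 1000 (log2 change 2.11, SE 0.30, limma adjusted p = 2.6e-10). That window held 1794 fragments in strongly labelled wells and 5 in wells under 1000 over all 8 plates; it met the minimum count through the strongly labelled wells, so its value is a description of a window that had to be high in them. The KI270438.1 window above held 5871 fragments in strongly labelled wells and 211 in wells under 1000.

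KO wells gave more of their fragments to contigs than WT wells when strongly labelled wells were summed. The share was 1.37% ± 0.243 in KO and 1.10% ± 0.166 in WT wells (SD, n = 8 plates). The lowest, median and highest plates were 1.10%, 1.27% and 1.71% in KO, against 0.893%, 1.14% and 1.35% in WT, so the genotypes overlapped across plates. Within plates KO stood above WT by 0.31 ± 0.27 on the log2 scale, on 8 of 8 plates (exact p = 0.00781, adjusted p = 0.0141). The size varied, from 0.04 on plate 3 to 0.82 on plate 1. The genotypes filled the parts of S phase unequally, with 89 KO and 140 WT wells in Q1 and 119 KO and 109 WT wells in Q4. Every genotype value summed over Q1 to Q4, here and for single contigs and windows, carries this difference in mix. Its part in those values was not tested. In wells under 1000 the KO share was 0.848% ± 0.0590 and the WT share 0.910% ± 0.123, and the KO-over-WT difference was greater in strongly labelled wells by 0.40 ± 0.35 on the log2 scale, on 7 of 8 plates (exact p = 0.0234, adjusted p = 0.0301); without KI270438.1 it was 0.35 (adjusted p = 0.0502), and the call was lost when any of plates 1, 3, 4, 5, 6 and 7 was left out (0.32 to 0.43).

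In the median well the genotypes did not differ past the test. The median share per strongly labelled well was 0.668% ± 0.192 in KO and 0.715% ± 0.240 in WT wells, higher in KO on 4 of 8 plates (exact p = 0.297). At the upper end, 124 of 431 KO wells (28.8%) held more than 2% contig fragments, against 77 of 483 WT wells (15.9%), a limit chosen after the values were seen and not tested. The 90th percentile of the share per well was 3.48% in KO and 2.28% in WT wells.

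Split by S-phase position, the genotypes differed in both directions. In Q4 the share was 3.15% ± 0.571 in KO and 1.96% ± 0.178 in WT wells, higher in KO on 8 of 8 plates (log2 difference 0.67 ± 0.30, exact p = 0.00781, adjusted p = 0.0156 over Q1 to Q4), with plates of 2.47% to 4.25% against 1.76% to 2.24% and so no overlap. In Q3 it was 1.14% ± 0.258 in KO and 1.54% ± 0.238 in WT wells, lower in KO on 8 of 8 plates (log2 difference -0.44 ± 0.32, exact p = 0.00781, adjusted p = 0.0156). In Q2 it was 0.434% ± 0.180 in KO and 0.597% ± 0.132 in WT wells, lower on 7 of 8 plates (-0.53 ± 0.48, exact p = 0.0234, adjusted p = 0.0313); this call was lost when any of plates 1 to 6 was left out (-0.53 to -0.42). In Q1 it was 0.250% ± 0.0755 in KO and 0.232% ± 0.0340 in WT wells (0.07 ± 0.30, exact p = 0.547, adjusted p = 0.547).

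In an unplanned contrast, the KO-over-WT difference was greater in Q4 than in Q1 by 0.60 ± 0.54 on the log2 scale (7 of 8 plates, exact p = 0.0156, unadjusted). It was greater in Q4 than in Q3 by 1.11 ± 0.48, a gap that follows from the opposite signs on every plate, so a test of it adds nothing. Averaged over Q1 to Q4 with equal weight it was -0.06 ± 0.17 (exact p = 0.391). The mean S-phase position of contig fragments was 0.843 ± 0.0360 in KO and 0.767 ± 0.0294 in WT wells (adjusted p = 0.0443 over 17 comparisons, exact test); relative to autosomal fragments the genotypes differed by 0.03 ± 0.04 (exact test, adjusted p = 0.083). Mean well positions within Q1 to Q4 differed between genotypes by 0.0018 to 0.0097 (exact test, adjusted p = 0.493 to 0.614).

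Depth also differed between the genotypes. In Q4, KO wells held 16509 ± 3030 autosomal fragments each and WT wells 25426 ± 5065. KO was lower in each of Q1 to Q4 (exact test, adjusted p = 0.0332 to 0.0443). Autosomal bins of unusually high count moved in the same directions as the contig share in Q3 and Q4. They held 1.02% ± 0.279 of fragments in KO and 1.67% ± 0.348 in WT wells in Q3 (exact test, adjusted p = 0.0332). In Q4 they held 5.12% ± 1.44 in KO and 4.05% ± 0.577 in WT wells (exact test, adjusted p = 0.118). The part of depth in the genotype difference was not tested.

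Single contigs are given next, first over all strongly labelled wells and then within Q1 to Q4. Over all strongly labelled wells, 3 of 69 contigs were higher in KO past the test and 0 were lower, where 1.28% of all 5870 features were called higher and 4.26% lower; 13 of the 69 had an unadjusted limma p under 0.05. The 3 were KI270519.1, with 137 ± 23.5 FPM in KO and 95.3 ± 20.1 in WT wells (log2 change 0.54, SE 0.14, limma adjusted p = 0.0203), KI270735.1, with 123 ± 20.3 in KO and 87.1 ± 19.2 in WT wells (0.52, SE 0.15, limma adjusted p = 0.0389), and GL000214.1, with 182 ± 46.8 in KO and 132 ± 15.6 in WT wells (0.45, SE 0.14, limma adjusted p = 0.0498). GL000214.1 was higher in KO on 5 of 8 plates only, and its call was lost with the plate as a block (limma adjusted p = 0.0519) and with duplicates counted once (limma adjusted p = 0.0811). Without plate 1, 0 contigs passed, and without plate 2, 4, 5 or 7, 1 passed. KI270438.1 had 3907 ± 859 in KO and 2920 ± 655 in WT wells (0.42, SE 0.16, limma adjusted p = 0.133; with the plate as a block, adjusted p = 0.0492). The median over the 69 contigs was 0.24, beside -0.03 over all features.

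Within Q4, 19 of 55 contigs tested were higher in KO and 0 were lower, beside 14.5% and 23.2% of all features. Of the 55, 54 had a value above 0. In Q3 0 of 52 were higher and 19 were lower, beside 15.4% and 22.6%, and in Q2 0 of 30 were higher and 11 were lower, beside 10.4% and 12.3%. In Q1 12 contigs could be tested and none passed in either direction, beside 5.36% and 10.7%. These fits were added after the pooled values were seen.

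GL000225.1 and KI270744.1 passed the test in opposite directions in Q4 and Q2. In Q4 GL000225.1 had 3094 ± 625 FPM in KO and 1339 ± 325 in WT wells, with plates of 2415 to 4307 against 977 to 1956 (log2 change 1.19, SE 0.15, limma adjusted p = 2.2e-06). In Q2 GL000225.1 had 372 ± 144 in KO and 821 ± 250 in WT wells (log2 change -1.24, SE 0.20, limma adjusted p = 4.5e-05), lower on 8 of 8 plates. KI270744.1 had 756 ± 247 in KO and 300.2 ± 154 in WT wells in Q4 (1.37, SE 0.26, limma adjusted p = 0.000179) and 146 ± 43.2 against 291 ± 61.1 in Q2 (-1.08, SE 0.20, limma adjusted p = 0.000253).

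KI270744.1 was also lower in Q3 (-0.42, limma adjusted p = 0.0166). GL000216.2, KI270442.1 and KI270729.1 passed in all of Q2, Q3 and Q4, lower in KO in Q2 and Q3 and higher in Q4. With the plate as a block, KI270729.1 lost its call in Q2 (limma adjusted p = 0.0708). GL000214.1 and GL000224.1 were among the others that passed in opposite directions in Q2 and Q4. KI270438.1 passed in Q3 and Q4, and KI270709.1 in Q3 alone. KI270438.1 had 9296 ± 2815 in KO and 5788 ± 1082 in WT wells in Q4 (0.67, SE 0.16, limma adjusted p = 0.00216) and 2909 ± 1190 against 3968 ± 817 in Q3 (-0.50, SE 0.19, limma adjusted p = 0.0345). KI270709.1, the contig with the latest mean position, had 60.4 ± 36.4 in KO and 140.0 ± 62.2 in WT wells in Q3 (-1.29, SE 0.32, limma adjusted p = 0.00251) and 642 ± 179 against 556 ± 148 in Q4 (0.21, SE 0.19, limma adjusted p = 0.415). The contigs with ribosomal RNA genes had values above 0 in Q2 and Q3, KI270733.1 with 237 ± 90.6 in KO and 166 ± 38 in WT wells in Q2 (0.42, SE 0.20, limma adjusted p = 0.134), and neither passed the test in any of Q1 to Q4 where it could be fitted. In Q4 KI270733.1 had 94.1 ± 35.8 in KO and 52.5 ± 30.6 in WT wells, higher in KO on 8 of 8 plates (0.92, SE 0.37, limma adjusted p = 0.0531; with the plate as a block, adjusted p = 0.0494).

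**Figure D5:**
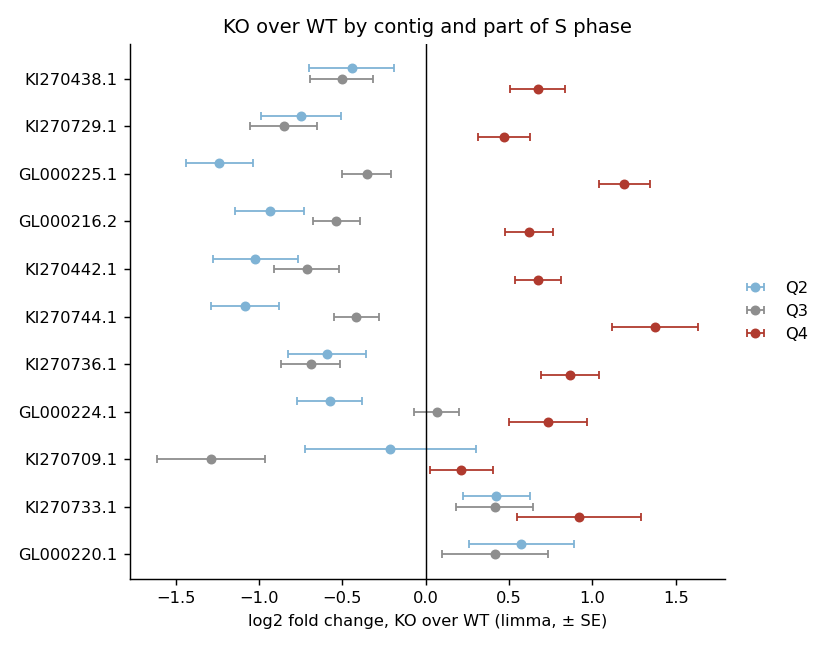
Log2 fold change of KO over WT (horizontal axis, limma, bars ± SE) in Q2, Q3 and Q4 of S phase for the 10 fullest contigs and GL000220.1. The first 8 contigs have values above 0 in Q4 and below 0 in Q2, while KI270733.1 and GL000220.1 have no value below 0; GL000220.1 had too few fragments for a value in Q4.

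Over 1 kb windows, 4 of 203 tested were higher in KO over all strongly labelled wells (1.97%) and 0 were lower (limma, 51 with an unadjusted p under 0.05), and with the plate as a block 25 were higher; without plate 1, 0 were. Bases 80001 to 81000 of KI270438.1 had 17.6 FPM in KO and 4.81 in WT wells (log2 change 1.54, SE 0.39, limma adjusted p = 0.0228), higher on 8 of 8 plates. Bases 34001 to 35000 and 25001 to 26000 of GL000225.1 (log2 changes 1.03 and 0.73) and bases 129001 to 130000 of GL000214.1 (0.82) were the others.

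The contigs were set beside 3 other sets of fragments, which the tables hold outside the ordinary autosomal bins. Assembly patches and alternative sequences (99114 fragments) had a KO-over-WT log2 difference of -0.02 ± 0.06, and the contigs' difference exceeded it by 0.32 ± 0.23 on 8 of 8 plates (exact p = 0.00781, adjusted p = 0.0141 over 9 comparisons). Those sequences changed by 0.08 ± 0.08 between Q1 and Q4 (Q4 over Q1), against 3.37 for contigs. Between well classes they were not separated from the contigs: they stood higher in strongly labelled wells than in wells under 1000 by 0.51 ± 0.12, on 8 of 8 plates (contigs minus patches -0.06 ± 0.24, exact p = 0.516, adjusted p = 0.516). The mitochondrial genome (78032 fragments) had a KO-over-WT difference of 0.38 ± 0.15, from which the contigs' did not differ past the test (-0.07 ± 0.28, exact p = 0.5, adjusted p = 0.516), but it was lower in strongly labelled wells than in wells under 1000, by -2.83 ± 0.44. The 22 high-count autosomal bins (200 kb each, above 3 times the median bin) had a log2 change of 4.03 ± 0.18 between Q1 and Q4. That was steeper than for contigs (contigs minus bins -0.66 ± 0.19, 8 of 8 plates, exact p = 0.00781, adjusted p = 0.0141). Autosomal bins, these among them, set the S-phase order and contigs did not, so this test cannot say which set rises more steeply. The KO-over-WT difference of the high-count bins, 0.16 ± 0.33, was not separated from that of contigs (contigs minus bins 0.15 ± 0.16, exact p = 0.0391, adjusted p = 0.0502).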

How the data were processed

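The authors deposited 1 table per plate with a row per fragment (cell, sequence name, position, signed length and genotype), on build GRCh38 per the submitters' processing notes; the sources used here name no aligner, filter or removal of duplicates. Fragments were counted by well, contig, 1 kb window and 500 kb bin. The genotype came from the deposited treatment column. Shares were compared as log2 ratios per plate (0.5 fragments added) by exact two-sided sign-flip tests (Python 3.11.15, scipy 1.17.1, numpy 2.4.6) with Benjamini-Hochberg adjustment over 9 share comparisons and over the 4 parts of S phase. The S-phase order came from a correspondence analysis of 5422 autosomal bins (first axis 18.8% of inertia). Contigs were fitted with all bins in limma 3.58.1 (voom, R 4.3.3), without a plate block, for features with a mean of at least 10 fragments per plate and group; adjusted p under 0.05 was called. The fits took fragment counts made here from the deposited positions, as log2 values weighted by voom. In the class comparison, at least 2 expected fragments per library were also required, a rule added because, on data simulated without a change, low-count features were called. On simulated data the fits then called 99.0% (KO over WT), 57.1% (class) and 99.0% (Q4 over Q1) of features changed by 1 on the log2 scale, and 0.247%, 0.0548% and 0.234% of unchanged ones. The simulated counts had 1 fixed spread between libraries and no plate effect, and 189 to 200 features were changed. The real Q4-over-Q1 fit called most features, so these rates need not hold for the real data. Named contigs are the 10 fullest, those with rRNA genes and up to 5 per direction with the greatest change in each comparison, plus a few singled out after their values were seen (GL000194.1, GL000218.1, GL000219.1, KI270731.1 and KI270734.1). The members, lists and limits were chosen with earlier results of these data known. Both genotypes come from the same plates, which is the pairing that the share tests use.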

Additional observations from a re-analysis of the deposited data

Results flagged for a closer look

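Of 74 sets of 8 plates checked for a plate far from the others, 6 had one, where chance alone gives about 1 in 20. Plate 7 accounted for 5 of them. Its contig share in wells under 1000 fragments was 1.09% over both genotypes and 1.17% in WT wells, each the highest of 8. In its strongly labelled KO wells, KI270744.1 stood at 604 FPM, GL000221.1 at 120 and KI270738.1 at 109, again the highest. Plate 8 had the highest KO share in Q3 of S phase, 1.71%.

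In 3 comparisons the genotype difference itself changed between groups of wells. KO over WT was greater in strongly labelled wells than in wells under 1000 by 0.40 on the log2 scale. It was greater in Q4 of S phase than in Q1 by 0.60 and than in Q3 by 1.11. The last was chosen after the values were seen. The exact p of 0.00781 (sign-flip test) for the contrast with Q3 adds nothing, since every plate was above 0 in Q4 and below 0 in Q3. Depth per well was lower in KO in each of Q1 to Q4, and its part in these differences was not tested.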

How the results depend on the processing

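Over the alternatives run, 290 values for the comparisons stayed within the same direction and side of the threshold (or within 1.5 times, for counts), and 780 values of single contigs did so; the exceptions follow, and the cause was not tested. Alternatives added after the data were seen are marked as added.

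For contig shares, 1 alternative left out the 3 strongly labelled wells of highest share per plate and genotype (added), and no wells of the other classes. It gave 0.051 for strongly labelled wells over wells of 1000 to 5000, and 0.36 for the KO-over-WT difference between well classes. That KO-over-WT difference was 0.35 without KI270438.1 and 0.32 to 0.48 with 1 plate left out. It missed adjusted p 0.05 in all of these but those without plates 2 and 8. KO over WT in Q1 was -0.29 with wells of at least 1000. In Q2 it lost its call at -0.39 with wells weighted equally, -0.13 with wells of at least 1000, -0.49 without those highest-share wells, and without any plate but 7 or 8 (-0.66 to -0.42 with 1 plate left out). The calls in Q3 and Q4 stayed under every alternative run.

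For GL000220.1, KO over WT passed the threshold at 0.25 with duplicates counted once, 0.28 with wells of at least 10000 and 0.19 together with KI270733.1 (added), and turned to -0.29 with wells weighted equally (0.088 to 0.21 with 1 plate left out). Its class comparison passed at 1.39 with wells weighted equally (0.34 to 0.75 with 1 plate left out). Against wells of 1000 to 5000 it was 0.18 together with KI270733.1 and 0.75 to 1.10 with 1 plate left out, and it kept its call without plate 5 or 7 alone.

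For counts of calls in limma, the replicate block (plate as a block) gave 5 contigs and 25 windows higher in KO, the trend fit 1 contig, and leaving out 1 plate 0 to 3 contigs (0 without plate 1, 1 without plate 2, 4, 5 or 7) and 0 to 3 windows (0 without plate 1); windows numbered 8 with a mean of at least 1 and 0 with a mean of at least 30 fragments. In the class comparison, the planned filter alone gave 16 contigs higher and 4 lower, and 22 windows higher and 15 lower; counting duplicates once gave 1 contig lower and 3 windows higher, the trend fit 1 window lower, and leaving out 1 plate 6 to 11 contigs higher (6 without plate 5). With a mean of at least 1 fragment, 89 contigs were higher and 10 lower in Q4.

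Signs turned for KI270438.1 between well classes (-0.015 scaled on the median bin, -0.37 with duplicates counted once), for KI270744.1 (-0.051 with duplicates counted once) and KI270736.1 (-0.051 to 0.20 with 1 plate left out), and for KI270706.1 in KO over WT (0.0020 scaled on the median bin, -0.17 to 0.027 with 1 plate left out), none of them called in the main fit. Wells under 1000 limit the class comparison: GL000220.1 had 12 fragments in them.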
